A study of Homo sapiens with 4 samples.

Results

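The genes described here encode the THO complex and the factors it works with in messenger RNA export, and their transcript levels were followed in HuCCT1, an established human cholangiocarcinoma (bile duct cancer) cell line. The group was named by function as 9 genes, THOC1, THOC2, THOC3, THOC5, THOC6, THOC7, ALYREF, DDX39A and NXF1. The members were chosen by function and selected on the log2 levels of these 4 arrays, THOC6 standing among the largest decreases with VPA, so all values below are a description and no test was made on them. Of the 9, 7 have a row of the array whose annotation gives that symbol alone, among 18377 genes measured in this way. THOC3 is covered only by 2 rows that also carry the symbol LOC728554. NXF1 is named by no row in the annotation used here, so its level was not read.

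The study put 1 array (Affymetrix Human Gene 1.0 ST) to each of 4 conditions of the same line, namely no treatment, VPA alone, GEM alone, or both agents together, called the combination. VPA and GEM are taken in their usual sense of valproic acid, a histone deacetylase inhibitor, and gemcitabine, a nucleoside analogue. The sources used here give no dose, time or passage. Every value is a log2 intensity as deposited, so a difference of 1 is a 2-fold difference, and with no replicate none of them carries an error or a p-value. In such bulk RNA, fewer cells that express a gene and less of its RNA per cell cannot be told apart.

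While a gene is transcribed, the THO complex binds the growing RNA and brings in an RNA helicase (DDX39B or its close relative DDX39A) and the adaptor ALYREF, forming the assembly called TREX. ALYREF hands the finished transcript to the export receptor NXF1, which carries it through the nuclear pore. THO is also known for limiting RNA-DNA hybrids behind RNA polymerase. THOC2 is its large scaffold, THOC1 and THOC3 are core subunits shared with yeast, and THOC5, THOC6 and THOC7 are the further subunits of the metazoan complex, THOC6 being a WD40-repeat protein.

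The sequences before 3 of the transcription start sites are shown because these genes cover the range of the results, THOC6 with the largest differences, ALYREF with intermediate ones and THOC2 with the smallest. They come from RefSeq (GRCh38.p14), which listed a start window for 8 of the 9 members, all but THOC7. Each is written 5′ to 3′ on the strand of its gene and ends at the base before the start. The THOC6 stretch is at chr16:3023943-3024034 (plus strand), the ALYREF stretch at chr17:81891588-81891787 (minus strand) and the THOC2 stretch at chrX:123733053-123733252 (minus strand). Capitals mark 4 short motifs searched on both strands, the CCAAT box (CCAAT), the GC box (GGGCGG), an E2F-type motif (TTCCCGC) and an ETS-type motif (CCGGAAG).
THOC6: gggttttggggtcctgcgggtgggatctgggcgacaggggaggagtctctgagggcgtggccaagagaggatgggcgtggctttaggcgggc
ALYREF: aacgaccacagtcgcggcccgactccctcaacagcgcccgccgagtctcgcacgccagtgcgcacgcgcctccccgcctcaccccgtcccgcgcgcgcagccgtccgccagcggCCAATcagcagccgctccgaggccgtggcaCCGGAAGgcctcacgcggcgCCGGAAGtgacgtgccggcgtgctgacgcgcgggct
THOC2: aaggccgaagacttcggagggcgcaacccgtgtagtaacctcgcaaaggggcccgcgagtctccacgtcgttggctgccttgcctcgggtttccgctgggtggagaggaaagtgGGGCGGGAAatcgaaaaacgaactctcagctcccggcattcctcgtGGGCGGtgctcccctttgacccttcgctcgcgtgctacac

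The THOC6 stretch is the 92 bases between its start and a start of HCFC1R1 on the opposite strand, and none of the 4 motifs lies in it. A CCAAT box begins 95 bases before the THOC6 start and a GC box 34 bases after it. ALYREF has a CCAAT box 86 bases before its start and ETS-type motifs at 56 and 36 bases. Outside the printed stretch it has an E2F-type motif at 215 bases and a GC box at 246 bases. In THOC2 a GC box at 86 bases overlaps an E2F-type motif at 84 bases, and a further GC box stands at 40 bases. Over the windows from 250 bases before to 50 after each start, the GC box was found in 7 of the 8 members and 48.3% of 27305 genes, the CCAAT box in 3 members and 39.7% of genes, the ETS-type motif in 3 members and 12.2% of genes, and the E2F-type motif in 2 members and 7.82% of genes. Both THOC6 and THOC2 hold a GC box, while the CCAAT box is found in THOC6 and the E2F-type motif in THOC2 alone of that pair. A match describes letters in a window and says nothing of a factor's binding.

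Before the members are described, 1 fact of the whole series bears on all of them. The arrays labelled untreated and combination were close to each other (correlation 0.996 over 28869 rows), as were those labelled VPA and GEM (0.996), while the other pairs lay between 0.984 and 0.987. The robust SD of the differences over all genes was 0.147 for combination minus untreated and 0.158 for GEM minus VPA, against 0.253 to 0.270 for the other 4 comparisons. Directions follow the labels, and whether an array was mislabelled was not tested. Of 9 markers of biliary and simple epithelium, 8 lay above the array median on all 4 arrays, all but MUC1, a mucin. Of 15 markers of hepatocytes, leukocytes, fibroblasts and endothelium, only APOA1, CD68 and COL1A1 did. Markers differed on the same arrays as the members. Of the 9 epithelial markers, 8 were higher with VPA and with GEM (all but EPCAM), with list medians of 0.48 and 0.55 and KRT7, a bile duct keratin, at 1.97 and 1.61, while the combination median was -0.05. Of the 4 leukocyte markers, CD68, a lysosomal protein that is not confined to leukocytes, was at 0.94 and 0.93 with VPA and GEM. LYZ, lysozyme, was at 0.45 and 1.00. CD3E was at 0.22 and 0.31, its levels lying between the 25th percentile and the median on every array. PTPRC, which defines leukocytes, stayed between 5.21 and 5.34, below the 25th percentile on every array. The medians of the hepatocyte, fibroblast and endothelial lists lay between -0.08 and 0.07 in both comparisons. The part of these marker differences in the members' values was not tested.

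All 7 measured members were lower on the VPA array and on the GEM array than on the untreated array, and the combination array was above both single-drug arrays for each of them. Of all genes at level on either array compared, meaning that the higher value reached that array's median, 55.3% were lower with VPA and 55.4% with GEM. On the combination array, 46.0% of genes at level were lower than with VPA and 46.7% lower than with GEM. Among the 5715 genes whose mean level reached the 75th percentile of rows, 61.3% were lower with VPA and 61.0% with GEM. Of the same genes, 38.3% were lower on the combination array than with VPA and 39.8% lower than with GEM. The share of genes with all these directions together was not counted. THOC6 had by far the widest range, 1.92 on the log2 scale, and the other 6 spanned 0.25 to 0.94. All 7 stood above the array median on every array, and 6 of them above the 75th percentile on every array, the exception being THOC1, which did so on 2. Levels of different genes come from different probes and are not compared here.

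**Figure D1:**
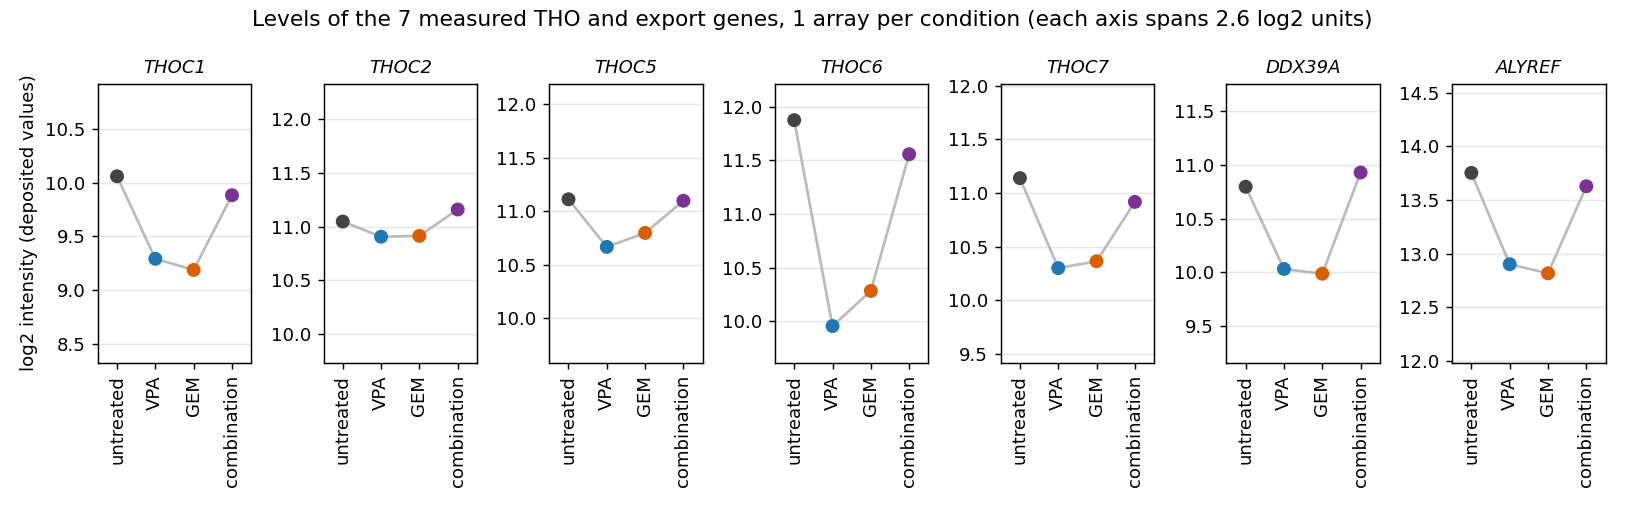
Deposited log2 intensity (vertical axis, each panel spanning the same distance) of the 7 measured members on the untreated, VPA, GEM and combination arrays (horizontal axis), 1 point per array, with lines only to guide the eye. In each panel the VPA and GEM points are the 2 lowest, and THOC6 drops furthest, from 11.87 to 9.95 and 10.28.

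Among the subunits of THO itself, THOC6 was at 11.87 on the untreated array, 9.95 on the VPA array, 10.28 on the GEM array and 11.56 on the combination array. Both single-drug arrays were thus low and the combination array stood near the untreated one. Its transcript was 3.78-fold lower with VPA (log2 difference -1.92) and 3.01-fold lower with GEM (-1.59), the 7th and the 45th largest decreases among 11611 and 11593 genes at level. On the combination array THOC6 was 0.32 below untreated, which 3.75% of the genes at level equalled or passed. It was 3.03-fold higher on the combination array than with VPA alone and 2.42-fold higher than with GEM alone. THOC6 was also the member that differed most between the single-drug arrays, 0.33 higher with GEM than with VPA.

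THOC1, whose protein was first described as a partner of the retinoblastoma protein, was at 10.06 untreated, 9.29 with VPA, 9.19 with GEM and 9.88 with the combination. THOC7, a small coiled-coil subunit that pairs with THOC5, was at 11.14, 10.30, 10.36 and 10.92 on the untreated, VPA, GEM and combination arrays. Both genes were low on the same 2 arrays as THOC6, with differences from untreated of -0.77 and -0.87 for THOC1 and -0.84 and -0.78 for THOC7 with VPA and GEM. On the combination array they were 0.18 and 0.22 below untreated.

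THOC5 and THOC2 differed least between arrays. THOC5 was at 11.11 untreated, 10.67 with VPA, 10.80 with GEM and 11.10 with the combination, so that the combination and untreated arrays were 0.01 apart, a difference whose sign turned after the columns were quantile normalized again. THOC2, the scaffold, was at 11.05, 10.91, 10.91 and 11.16 in the same order. Its differences from untreated of -0.14 and -0.13 with VPA and GEM were equalled or passed by 40.0% and 40.5% of the genes at level, and came to -0.05 and -0.03 after quantile normalization again. The difference of THOC5 from untreated was -0.44 with VPA and -0.31 with GEM, between those of THOC2 and of its partner THOC7.

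THOC3 can be read only through its 2 shared rows. These were at 10.63 and 10.59 untreated, 10.05 and 10.04 with VPA, 10.11 and 10.08 with GEM, and 10.69 and 10.68 with the combination. Both rows were low on the single-drug arrays, by -0.59 and -0.55 with VPA and by -0.53 and -0.50 with GEM, and 0.06 and 0.09 above untreated on the combination array. How much of each signal belongs to THOC3 cannot be told apart from LOC728554, and whether the 2 rows are independent measurements was not tested.

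The helicase and the adaptor were low on the same arrays. DDX39A was at 10.80 on the untreated array, 10.03 on the VPA array, 9.99 on the GEM array and 10.93 on the combination array. It was 1.70-fold lower with VPA and 1.75-fold lower with GEM, and on the combination array it stood 0.13 above untreated. Its close relative DDX39B was measured only in 3 rows that share a read-through symbol. It was lower by -0.43 to -0.44 with VPA, by -0.35 to -0.37 with GEM, and by -0.09 to -0.13 with the combination. Some of these rows were nearly identical (-0.43705 and -0.43702 with VPA), so the 3 are not taken as independent measurements.

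ALYREF, the adaptor, was at 13.75 untreated, 12.90 with VPA, 12.82 with GEM and 13.63 with the combination. The single-drug arrays were again the low ones, 1.80-fold below untreated with VPA and 1.91-fold with GEM. ALYREF is the only member with 2 rows of its own, and these gave -0.87 and -0.83 with VPA and -0.95 and -0.92 with GEM. The rows carry the same accessions, so they are not independent measurements.

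**Figure D2:**
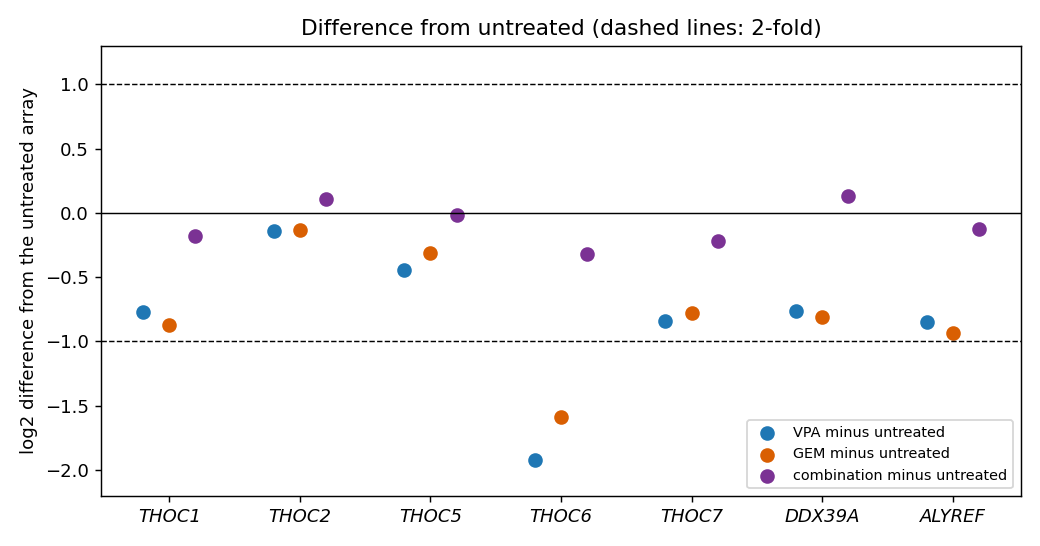
Log2 difference from the untreated array (vertical axis) for each measured member (horizontal axis) with VPA, GEM and the combination, 1 point per comparison, with dashed lines at 2-fold. The VPA and GEM points of all 7 genes are below 0 and only those of THOC6 pass the dashed line, while the combination points lie between -0.32 and 0.13.

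Read against all genes, 1 of the 7 members, THOC6, was at least 2-fold lower with VPA, where 2.09% of 11611 genes at level were lower and 1.9% higher. It was also the only one at least 2-fold lower with GEM, where 3.01% of 11593 genes were lower and 1.48% higher. At a limit of 1.5-fold, 5 of the 7 were lower with VPA and 5 with GEM, all but THOC2 and THOC5 in both, against 10.4% and 11.1% of genes at level. The members' median was -0.77 with VPA and -0.81 with GEM, beside medians of -0.05 and -0.04 over genes at level and of -0.11 and -0.10 over the 5715 genes whose mean level reached the 75th percentile of rows. The VPA and GEM comparisons use the same untreated array and the members were chosen with these differences in view, so nothing is inferred from these shares.

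On the combination array 0 of the 7 members were 2-fold from untreated, with 5 below and 2 above and a median of -0.12 (all genes at level -0.03, 0.122% of 11489 at least 2-fold higher and 0.0261% lower). THOC6 alone was at least 2-fold higher than with VPA, where 1.48% of genes were higher and 1.68% lower, and alone at least 2-fold higher than with GEM, where 3.6% were higher and 1.78% lower. At 1.5-fold, 5 members were higher than with VPA (9.17% of genes) and 4 than with GEM (11.9%), THOC7 falling short of the second at 0.55. Between GEM and VPA 0 members differed 2-fold (0.0349% of genes higher and 0.27% lower), and 6 of the 7 were within 0.13 of each other. Without replicates, the order of the VPA and GEM levels of a member, and that of its untreated and combination levels, was not tested.

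The departure from additivity is the log2 difference made by VPA in the presence of GEM less that in its absence. It was 3.19 for THOC6, the 18th highest of 11808 genes. It was above 0 for all 7 members, with a median of 1.47 beside 0.07 over all those genes, of which 54.3% were above 0. The quantity has no residual degrees of freedom here and was not tested.

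The other genes of mRNA export were taken as 5 lists by function, 39 genes of which 37 had a row of their own. With VPA 1 of the 37 was at least 2-fold lower and 0 higher, and with GEM 2 were lower and 0 higher, beside 2.09% and 3.01% of genes at level lower. Of the 37, 35 were below 0 with VPA and 33 with GEM, as were 55.3% and 55.4% of all genes at level and 61.3% and 61.0% of those whose mean level reached the 75th percentile of rows. Their medians were -0.35 with VPA and -0.26 with GEM. On the combination array 0 of the 37 differed 2-fold from untreated and the median was -0.10.

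XPO1, the export receptor for proteins and several RNA classes outside the NXF1 route, was the gene 2-fold lower with VPA (-1.12) and was lower with GEM too (-1.09, but -0.98 after quantile normalization again). It was at 11.72 untreated, 10.60 with VPA, 10.64 with GEM and 11.50 with the combination, the same low pair of arrays as for THOC6. The list of other receptors with RAN, the GTPase that drives them, had a median of -0.65 with VPA and -0.59 with GEM over 4 genes. CETN3, a centrin of the group linked to TREX-2, which tethers genes and transcripts to the pore, was lower with GEM at -1.04 and at -0.83 with VPA. The other TREX-2 genes lay between -0.59 and 0.26 in both comparisons, and the list's median was -0.28 with VPA and -0.20 with GEM over 6 genes.

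Of the 13 TREX partners and adaptors measured, 0 were 2-fold from untreated on any array, with medians of -0.41 and -0.42 for VPA and GEM. SRSF7, a splicing factor that also serves as an export adaptor, had the largest difference at -0.97 with VPA (-1.02, past 2-fold, after median centring) and was at -0.85 with GEM. NXT2, related to the partner of NXF1, was at -0.63 and -0.89. It was the 1 gene of the 37 at least 2-fold higher on the combination array than with GEM (1.08), beside 3.6% of genes at level. CETN3 fell just short of that limit at 0.997, and passed it after quantile normalization again (1.001) and median centring (1.04). Among 7 cap-binding and exon junction genes, which mark spliced and capped RNA, the median was -0.34 with VPA and -0.21 with GEM, and the largest differences were in the junction core genes MAGOH (-0.72 and -0.73) and EIF4A3 (-0.41 and -0.40). Among 7 genes of the cytoplasmic face of the pore, where helicases release the transcript, the median was -0.31 and -0.17, with RAE1 at -0.69 and -0.67 and the helicase DDX19A at -0.55 and -0.26.

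**Figure D3:**
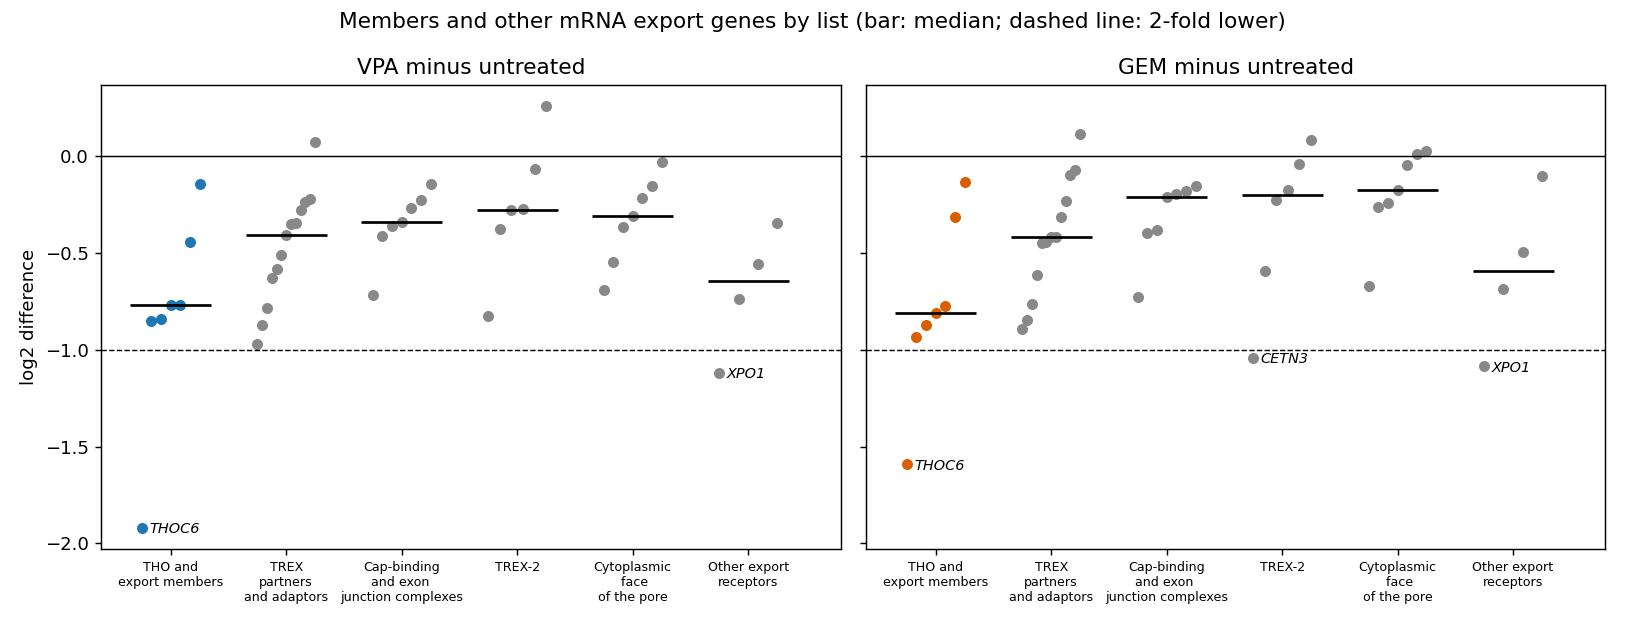
Log2 difference from untreated (vertical axis) with VPA (left) and GEM (right) for the 7 measured members and for the 37 other export genes by list (horizontal axis), 1 point per gene, with bars at list medians and a dashed line at 2-fold lower. The named points past the line are THOC6 and XPO1 in both panels and CETN3 with GEM.

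THOC6 was the only member whose levels spanned at least 1, and the genes most like it were sought among 11807 others at level by the Euclidean distance of the 3 differences from untreated. The 5 nearest were H2AC13, a replication-dependent histone gene (distance 0.23), MND1, a meiotic recombination factor (0.31), PLK4, the kinase of centriole duplication (0.34), H3C1, a further histone gene (0.37), and TMPO, which encodes lamina-associated proteins (0.41). H2AC13 was at -1.94 with VPA, -1.80 with GEM and -0.42 with the combination. None of the 5 was among the 5 nearest by correlation over the 4 arrays, where 543 genes exceeded 0.99, so with 4 arrays the choice of neighbours rests on the measure. The histone values are uncertain, since copies of these genes are nearly identical.

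On chromosome 16 the RefSeq span of THOC6 overlaps those of HCFC1R1 on one side and BICDL2 on the other, and starts of HCFC1R1 lie 93 bases before and 251 bases after that of THOC6 on the opposite strand. The single row that carries HCFC1R1, which also names PHRF1, was at 9.16 untreated, 8.81 with VPA, 8.62 with GEM and 9.07 with the combination. It was low on the same arrays as THOC6, by -0.35 and -0.54. BICDL2 went the other way, at 8.37, 8.70, 8.57 and 8.26 in the same order, or 0.33 and 0.20 above untreated with VPA and GEM. The sources used here do not say whether probes of these rows lie within the overlaps.

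**Figure D4:**
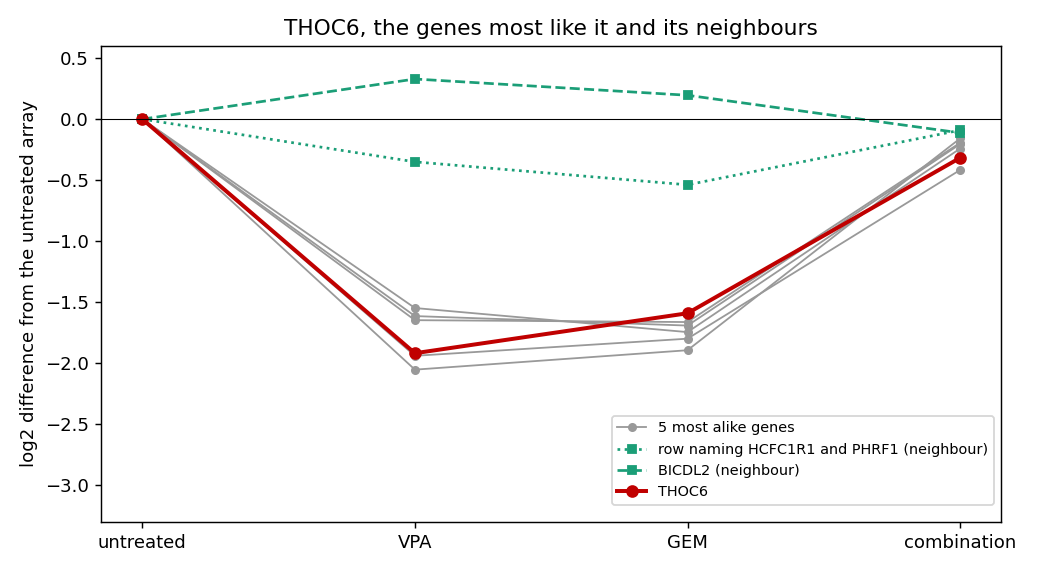
Log2 difference from the untreated array (vertical axis) on the 4 arrays (horizontal axis) for THOC6, the 5 genes nearest to it and the rows of its 2 overlapping neighbours. THOC6 and the 5 nearest genes lie between -1.55 and -2.05 with VPA, and the neighbours at -0.35 and 0.33.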

How the data were processed

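HuCCT1 RNA of 4 conditions was profiled on 1 array each, and the number of arrays limits the precision. The deposited table holds log2 intensities of 28869 rows per array, processed by the authors in GeneSpring GX 11.5, per the labels (series text), while the submitters' processing notes name RMA. RMA is meant to make the arrays' distributions alike, and it compresses low values. The deposited columns still differed slightly. Their 75th percentiles were 9.717 untreated, 9.640 with VPA, 9.635 with GEM and 9.697 with the combination. The sources used here name no genome build for the rows. Rows were named by the platform annotation, which gives 1 symbol to 19310 rows, several to 1752 and none to 7807. A gene took the mean of its rows with 1 symbol. The limit for a difference was 2-fold, the authors' ratio limits of 2 and 0.5, with the higher value at or above the median of its array. No test was run. The members and lists were chosen with earlier results of these data known. Named genes were the 9 members, in each other list up to 4 genes past 2-fold from untreated or else the 2 largest, and the 5 genes nearest to a member that spanned 1. Alternatives were quantile normalization again, median centring, limits of 1.5-fold and 3-fold, 2 other level filters, the brightest row per gene and a correlation as likeness. Simulated arrays were used to check only the 2-fold rule, with changes set well above that limit, and the quantile normalization. The work used Python 3.11.15, numpy 2.4.6 and pandas 2.3.3, and figures were drawn with matplotlib 3.10.9.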

Additional observations from a re-analysis of the deposited data

Results flagged for a closer look

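For all 7 measured members, VPA went with a lower level in the absence of GEM (VPA against untreated) and a higher level in its presence (combination against GEM), and the same opposite directions held for GEM without and with VPA. With 1 array per condition this difference was not tested. The departure from additivity that measures it was 1.47 for THOC1, 0.39 for THOC2, 0.74 for THOC5, 3.19 for THOC6, 1.39 for THOC7, 1.66 for ALYREF and 1.71 for DDX39A on the log2 scale. These 7 values rest on the same 4 arrays. Over all 11808 genes at level on any array the median was 0.07 and the robust SD 0.694, with 54.3% above 0. The share of genes with the same opposite directions was not counted. As described above, the untreated and combination arrays were close to each other over all rows, as were VPA and GEM.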

How the results depend on the processing

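The 126 log2 differences of the 7 members recomputed under quantile normalization again, median centring and the brightest row shifted by at most 0.109, and 1 changed sign, THOC5 for combination against untreated. The count of members past the limit was 5 for VPA, 5 for GEM, 5 for combination over VPA and 4 for combination over GEM at 1.5-fold, and 0 for combination over GEM at 3-fold, in place of 1 each. The count held under the other scalings, level filters and row choice. Of the 37 other export genes, 9 were lower with VPA and 10 with GEM at 1.5-fold, beside 10.4% and 11.1% of genes at level. On the combination array, 7 were higher than with VPA and 5 than with GEM at 1.5-fold, beside 9.17% and 11.9% of genes at level. At 2-fold the count was 2 for VPA with median centring, 1 for GEM after quantile normalization again, and 2 for combination over GEM under either scaling. Quantile normalization again gave departures of 0.21 for THOC2, 0.57 for THOC5, 3.01 for THOC6, 1.20 for THOC7 and 1.53 for DDX39A. By correlation 0 of the 5 genes nearest to THOC6 were found again. Over all genes, 47.6% of those past 2-fold with VPA were higher, 58.4% after quantile normalization again and 38.7% with median centring, and for combination over VPA 46.9%, 41.4% and 58.0%. No paired analysis was possible because each condition has 1 array. Without replicates, the size of array noise is not known. Differences within the robust SD between the closest arrays (0.147) cannot be told from it. Against untreated, these were THOC2 with VPA and GEM, and THOC2, THOC5, ALYREF and DDX39A with the combination. Between GEM and VPA, they were those of all measured members but THOC6. A difference above 0.147, such as that of THOC1 or THOC7 with the combination, is not thereby told from noise.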
